A study of Mus musculus with 2 samples.

Results

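The angiopoietin and Tie axis was followed as 6 genes, all 6 of them listed in both deposited count tables, out of the 9127 gene symbols that the tables share. The genes are Angpt1 and Angpt2, which encode secreted angiopoietins, Tek and Tie1, which encode the receptors Tie2 and Tie1, Ptprb, which encodes the endothelial receptor phosphatase VE-PTP, and Angptl4, an angiopoietin-like gene. They were grouped by what they encode and not by their levels. Counts were summed per library over cells gated by marker genes as endothelial (tip, venous, capillary or none of these), mural, fibroblast, or positive for the keratins Krt8 and Krt18.

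Angiopoietin-1 made by perivascular and stromal cells is known to activate Tie2 on endothelium and so to favour quiescent, sealed vessels. Angiopoietin-2, released by activated endothelium and by tip cells, acts on the same receptor and often opposes that signal. Tie1 has no well established ligand and tunes Tie2 as a partner in the same complex, while VE-PTP removes phosphate from Tie2 and also associates with VE-cadherin at junctions. ANGPTL4 does not bind Tie receptors. It inhibits lipoprotein lipase and is induced by hypoxia and fatty acids.

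The 2 groups were tumours of C57BL/6 mice of the genotype Cdh-cre Myct1 fl/fl, called the Myct1 knockout here, and tumours of WT C57BL/6 mice. In the knockout a Cre driver spelled Cdh-cre on the sample and Cdh5-cre in the series title acts on a floxed Myct1 allele, and Cdh5 is the endothelial cadherin gene. Each group was 1 droplet library of cells pooled from 4 mice, digested with collagenase-II, dispase-II and deoxyribonuclease and read from the 3′ end. The labels and notes name no age, tumour model, treatment or sort, and not which exon is floxed. With 1 library a genotype there is no test and no p-value: the libraries are compared, and genotype cannot be told apart from library, batch or the mice in each pool. Intervals are 95% intervals of counting error only, and reads from 4 mice in a pool do not make 4 replicates.

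The knockout library held 10700 barcodes with a median of 12921 UMIs (counted molecules), and the WT library 10880 barcodes with a median of 8725.5. After filtering, 7683 knockout and 7843 WT cells remained, and 218 barcodes occurred in both libraries. The gates gave 281 knockout and 503 WT endothelial cells, 23 and 90 mural cells, 122 and 2731 fibroblasts, and 5880 and 3391 keratin positive cells. All 10 endothelial markers were detected in endothelial cells of both libraries, with a summed level of 7986 CPM (counts in 10 to the power of 6) in the knockout and 10142 CPM in WT, although the sample source is labelled as endothelial cells and most cells were not. Summed fibroblast markers in endothelial cells reached 13.8 CPM in the knockout and 131 CPM in WT. Myct1 had 909 UMIs in WT endothelial cells (247 CPM, 232 to 264). It was not listed in the knockout table, where every listed gene reached at least 4 UMIs in some barcode. Since the floxed exon is not named, 3′ reads of Myct1 need not lie in the deleted part.

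On GRCm38 with GENCODE vM21, both receptor genes lie on chromosome 4, Tek (ENSMUSG00000006386.15) on the plus strand at chr4:94739289-94874976 with 23 exons, and Tie1 (ENSMUSG00000033191.14) on the minus strand at chr4:118471191-118490061 with 22 exons. Their promoters are shown because both receptors were lower in the same endothelial cells, and they were the 2 of 6 members with an entry in the RefSeq promoter table of GRCm38.p6. The first line gives the 250 bases before the start of Tek (chr4:94739039-94739288, plus strand), the second 30 bases inside the first exon of Tek (chr4:94739309-94739338, plus strand), and the third 38 bases before the first annotated base of Tie1 (chr4:118490062-118490099, minus strand), whose RefSeq start lies 212 bases further downstream. Capitals mark a GATA motif, AGATAA, and an Ets core, CGGAAG.
Tek upstream: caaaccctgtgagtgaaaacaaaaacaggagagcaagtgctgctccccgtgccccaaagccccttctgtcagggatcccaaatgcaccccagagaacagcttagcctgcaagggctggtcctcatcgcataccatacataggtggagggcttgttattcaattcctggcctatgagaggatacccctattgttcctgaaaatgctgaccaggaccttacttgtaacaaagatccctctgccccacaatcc
Tek motif site: ccggagcaggagcagaAGATAAgccttgga
Tie1 upstream: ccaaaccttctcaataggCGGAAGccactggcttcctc
The search read both strands of the 300-base windows for both of these, for the forkhead motif TAAACA and for the hypoxia element core ACGTG, and found 1 AGATAA in the Tek window and 1 CGGAAG in the Tie1 window. AGATAA occurred in 11.2% of 32851 promoters of the same length, CGGAAG in 16.9%, TAAACA in 13.4% and ACGTG in 19.6%. These matches describe letters in a window and not binding.

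Among the ligands, Angpt1 (ENSMUSG00000022309.9, chr15:42424723-42676977, minus strand, 9 exons, overlapped by the antisense gene Gm17473) was not detected in endothelial cells of either library. In WT its level was higher in fibroblasts and mural cells than over all keratin positive cells. It had 0 UMIs in 281 knockout and 0 in 503 WT endothelial cells, which allows a level of up to 1.26 CPM in the knockout and 0.816 CPM in WT at a limit of 3 counts. Fibroblasts held 4 UMIs in the knockout (3.97 CPM, 1.08 to 10.2) and 440 in WT (17.2 CPM, 15.7 to 18.9), the WT level being at least 21.1-fold above the endothelial limit of that library. Mural cells had 1 UMI in the knockout and 7 in WT (11.3 CPM, 4.54 to 23.3), so that the mural and fibroblast levels of WT could not be ordered beyond counting error. Keratin positive cells were at 2.37 CPM in the knockout (241 UMIs) and 2.90 CPM in WT (161 UMIs). They were uneven, as a keratin positive cluster was at 8.86 CPM in the knockout and 28.1 CPM in WT (50 UMIs in 111 cells). The log2 ratio of fibroblasts over keratin positive cells was 0.74 in the knockout (-1.14 to 2.12) and 2.57 in WT (2.31 to 2.84). Angpt1 UMIs in the knockout came mostly from keratin positive cells, which are far more numerous.

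The fibroblast level of Angpt1 was lower in the knockout by 2.12 on the log2 scale, but that ratio rests on 4 knockout UMIs and its interval ran from -4.00 to -0.75. Over alternative gates, clusters, filters and scalings it lay between -2.66 and -1.83. In keratin positive cells the log2 ratio was -0.29 (-0.58 to 0.01), against a median of -0.26 over all genes of those cells.

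Angpt2 (ENSMUSG00000031465.6, chr8:18690263-18741562, minus strand, 9 exons) was an endothelial and mural transcript. Tip cells, which lead vessel sprouts, had the highest level of the gated classes with at least 20 cells, 388 CPM in the knockout (355 to 423) and 505 CPM in WT (468 to 544). Venous cells were at 92.9 and 235 CPM, capillary cells at 135 and 153 CPM, and endothelial cells of no subtype at 262 and 223 CPM, knockout before WT in each pair. A UMI was found in 70.6% of knockout and 79.2% of WT tip cells, and in 4.74% and 3.04% of keratin positive cells, at medians of 7987 and 8410 UMIs in tip and 16429 and 16062 in keratin positive cells. Angpt2 in tip cells was 4.17-fold its venous level in the knockout and 2.15-fold in WT.

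Over all endothelial cells Angpt2 was at 294 CPM in the knockout (273 to 317) and 318 CPM in WT (299.9 to 337), a log2 ratio of -0.11 (-0.25 to 0.02) whose sign the scaling set, since TMM scaling gave 0.22 and genes of like transcript length 0.36. Within tip cells it was -0.38 (-0.55 to -0.21), with -0.08 under TMM and 0.04 against genes of like length. Within venous cells it was -1.34 (-2.12 to -0.64), from 18 knockout UMIs of which 17 lay in 5 of the 30 cells. Tip cells were 143 of 281 endothelial cells in the knockout and 144 of 503 in WT, and with knockout subtypes weighted as in WT the ratio of all endothelial cells was -0.39.

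Mural cells, the pericytes and smooth muscle cells around vessels, held 5 Angpt2 UMIs in the knockout (25.3 CPM, 8.21 to 59.0) and 74 in WT (119 CPM, 93.7 to 150). The log2 ratio was -2.24 (-3.90 to -0.95), and -1.09 when mural cells were taken from clusters in place of gates. Summed mural markers were 6848 CPM in knockout and 13283 CPM in WT mural cells, and endothelial markers 556 and 1110 CPM, and their part in the ratio was not tested. In WT mural cells 74 Angpt2 UMIs stood beside 1 Tie1 UMI, whereas WT endothelial cells held 0.834 Angpt2 UMIs per Tie1 UMI. Keratin positive cells were at 2.84 CPM in the knockout and 1.98 CPM in WT, a log2 ratio of 0.52 (0.20 to 0.85). Angpt2 lies within Mcph1, a gene of the opposite strand that was at 7.14 CPM in WT keratin positive cells and is not listed in the knockout table. Whether reads of that strand were counted to Angpt2 at these low levels was not tested.

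**Figure D1:**
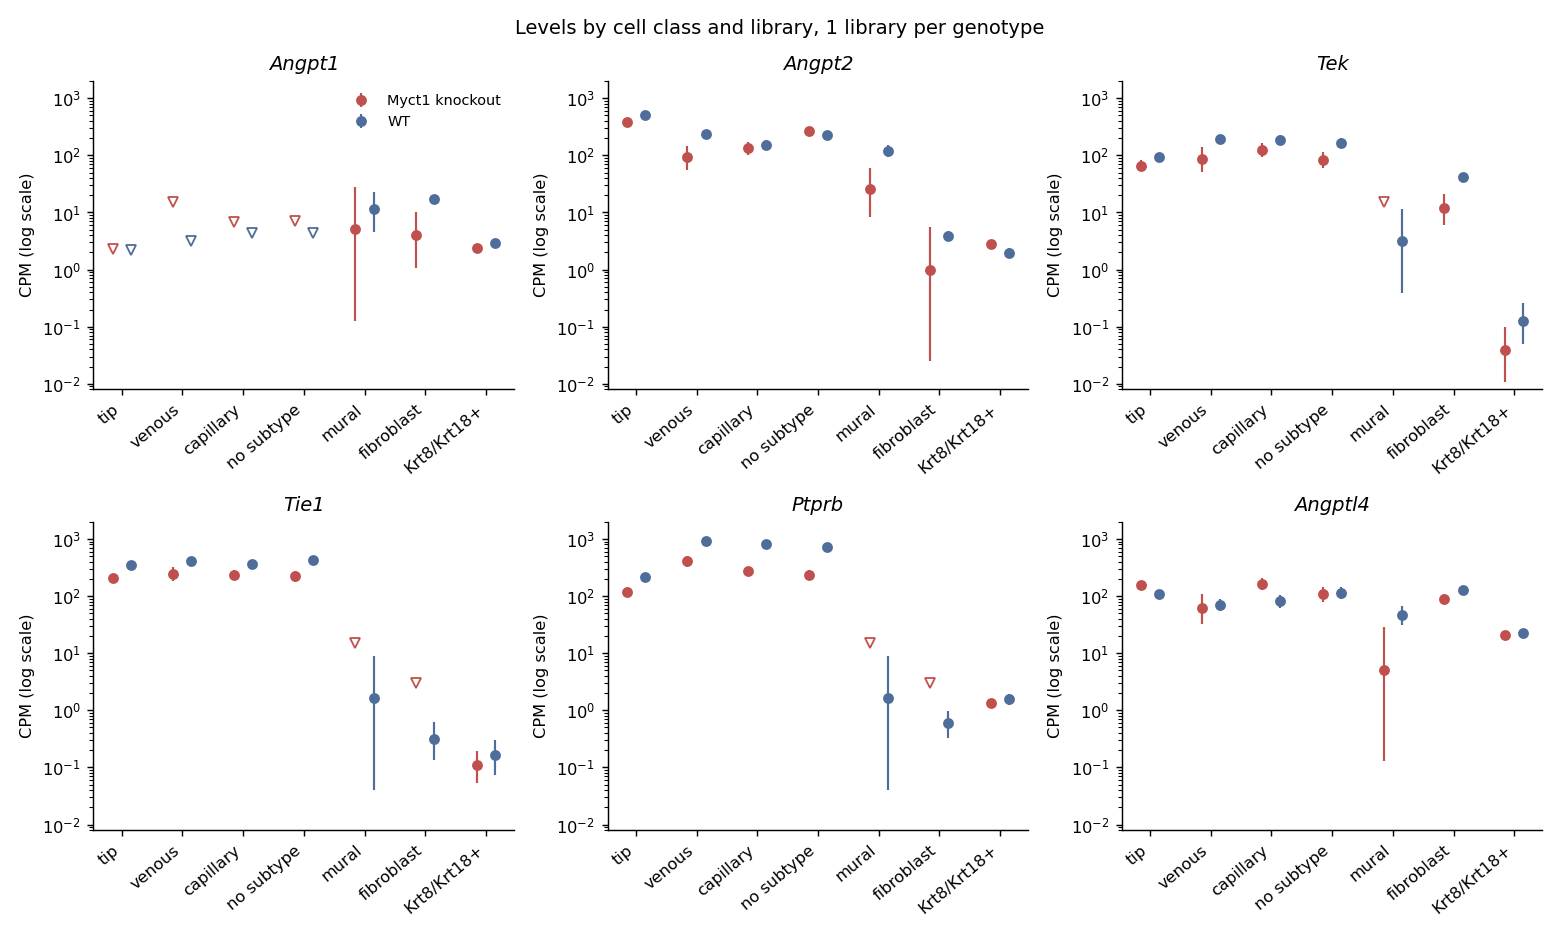
Level of each of the 6 genes in CPM (log axis) by cell class, with the Myct1 knockout library left of WT in each pair. Points are sums over the cells of a class with exact Poisson 95% intervals and open triangles mark the level of 3 counts where 0 UMIs were found. Tek, Tie1 and Ptprb are lower in the knockout in every endothelial class, Angpt1 is at 0 UMIs in all of them, and Tek in fibroblasts reaches 41.7 CPM in WT.

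The receptors and the phosphatase were lower together in knockout endothelium, Ptprb by most. Tek, the gene of Tie2, had 196 UMIs in knockout endothelial cells (82.2 CPM, 71.1 to 94.6) and 549 in WT (149 CPM, 137 to 162). Its partner Tie1 had 518 UMIs in the knockout (217 CPM, 199 to 237) and 1401 in WT (381 CPM, 362 to 402). Ptprb (ENSMUSG00000020154.10, chr10:116275523-116389535, plus strand, 32 exons, overlapping Gm47625 and Gm26495 on the same strand) had 457 UMIs in the knockout (192 CPM, 175 to 210) and 2237 in WT (609 CPM, 584 to 635). The knockout and WT intervals do not overlap for any of these 3 genes. The share of all genes with such intervals was not counted, so this is not read as particular to them. The libraries were also unlike in the clusters named endothelial. Cluster 10 held 296 knockout and 285 WT cells, while cluster 13 held 2 knockout and 259 WT cells. The part of this unlike makeup in the endothelial ratios was not tested.

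The log2 ratio of knockout over WT was -0.86 for Tek (-1.10 to -0.62), -0.81 for Tie1 (-0.96 to -0.66) and -1.67 for Ptprb (-1.82 to -1.52), a 3.18-fold lower level. Of the 5 members with at least 20 UMIs, 3 were thus at least 1.5-fold lower and 0 at least 1.5-fold higher, beside 37.2% of 8045 genes lower and 11.7% higher in the same cells. The median gene was at -0.34. Being lower was therefore common in this comparison: Tek stood at percentile 21.3 of all genes, Tie1 at 24.2 and Ptprb at 2.22.

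Ratios in endothelial cells were lower at greater transcript length, with a median of 0.44 in the tenth of genes with the shortest transcripts (median 1020 bases) and -0.78 in that with the longest (8547 bases). The longest annotated transcripts are 4654 bases for Tek, 4234 for Tie1 and 11911 for Ptprb. Relative to the genes nearest in length, Tek was at -0.24, Tie1 at -0.22 and Ptprb at -0.86. TMM scaling, which centres most genes on 0, gave -0.53, -0.48 and -1.34. What part of these ratios goes with length was not tested beyond these values.

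**Figure D2:**
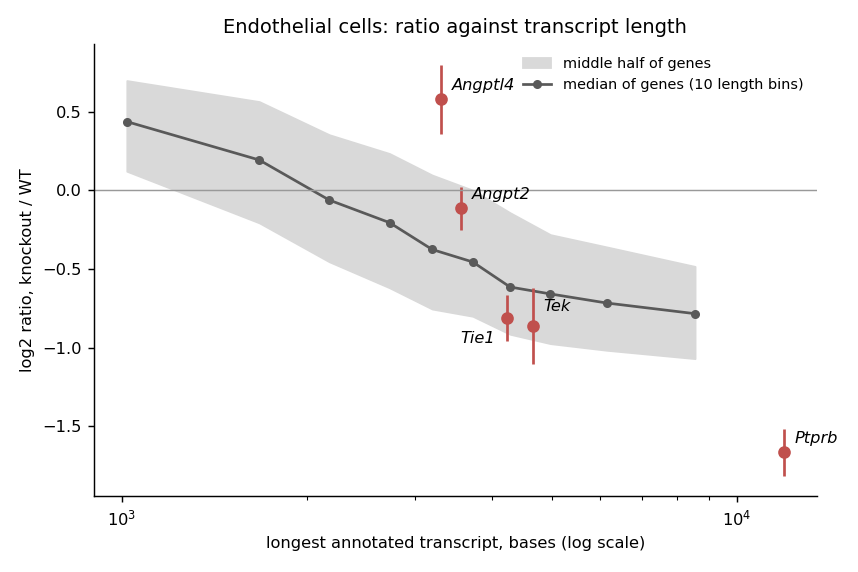
Log2 ratio of knockout over WT in endothelial cells against the longest annotated transcript in bases (log axis). The line and band show the median and the middle 50% of genes in 10 length bins, and points are members with 95% counting intervals. Tek and Tie1 lie inside the band, Ptprb at -1.67 lies under the bins of long genes, and Angptl4 at 0.58 lies above the band.

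Subtypes of endothelium were cut from marker scores, so they are ranges and not separate types, and 40 knockout and 63 WT endothelial cells lay within 0.1 of the margin between subtypes. Among the receptors and the phosphatase, Ptprb had the widest range of levels over the named subtypes in both libraries. It was at 118 CPM in knockout and 217 CPM in WT tip cells, at 408 and 933 CPM in venous cells, and at 272 and 821 CPM in capillary cells. Venous and capillary cells therefore had 3.45-fold and 2.30-fold the tip level in the knockout, and 4.30-fold and 3.79-fold in WT. The log2 ratio of knockout over WT was -0.87 in tip cells (-1.16 to -0.59), -1.19 in venous cells (-1.55 to -0.86) and -1.59 in capillary cells (-1.89 to -1.31). With knockout subtypes weighted as in WT, the ratio over all endothelial cells was -1.33. Venous cells were 30 of the endothelial cells in the knockout and 150 in WT. Summed venous markers were 2979 CPM in knockout and 5420 CPM in WT venous cells. Tip markers were 4808 and 6044 CPM in tip cells and capillary markers 6977 and 8529 CPM in capillary cells. The part of these unlike marker levels in the members' ratios by subtype was not tested.

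Tek was also lowest in tip cells of both libraries. Tip cells were at 66.0 CPM in the knockout and 94.2 CPM in WT, venous cells at 87.8 and 191 CPM, and capillary cells at 126 and 188 CPM. In WT, venous and capillary cells did not differ beyond counting error and both exceeded tip cells, while in the knockout the capillary level exceeded the tip level and the venous interval (51.1 to 141) overlapped both. The log2 ratio of Tek was -0.51 in tip, -1.12 in venous and -0.57 in capillary cells, or 0.05, -0.66 and 0.17 relative to genes of like length, so that its direction in tip and capillary cells depended on that correction.

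Tie1 was nearly level across endothelium. Knockout subtypes with a name ranged between 206 and 248 CPM and WT subtypes between 353 and 412 CPM, with overlapping intervals of the levels inside each library. Tip cells of WT lay below venous cells of WT by a log2 ratio of -0.22 (-0.42 to -0.03). The log2 ratio was -0.77 in tip, -0.73 in venous and -0.63 in capillary cells, and the last turned to 0.13 relative to genes of like length. Cells of no subtype were at 222 CPM in the knockout and 420 CPM in WT.

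At least 1.5-fold lower were 2 of 5 members in tip cells (33.7% of all genes), 4 of 5 in venous cells (33.8%), 2 of 5 in capillary cells (40.2%) and 3 of 5 in cells of no subtype (40.1%). At least 1.5-fold higher were 0 of 5 members in tip cells (10.2% of all genes), venous cells (14.7%) and cells of no subtype (14.3%), and 1 of 5, Angptl4, in capillary cells (17.6%). Tie1 and Ptprb were the lower members counted in tip and capillary cells, and Tek, Tie1 and Ptprb in cells of no subtype. In venous cells they were Angpt2, Tek, Tie1 and Ptprb. Angpt2 and Tek reached 20 UMIs there through WT alone, so that their being lower is in part set by that filter. The venous count of lower members is therefore not read against the 33.8%.

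Cycling cells were 16.7% of knockout and 3.78% of WT endothelial cells. Without them the ratios were -1.05 for Tek, -0.79 for Tie1 and -1.65 for Ptprb. The share of cells with a UMI after thinning each cell to 3000 UMIs was 22.1% in the knockout and 35.9% in WT for Tek, 48.1% and 69.8% for Tie1, and 39.3% and 70.0% for Ptprb, over 262 knockout and 474 WT cells deep enough. Unthinned shares were 45.2% and 58.3% for Tek, 74.7% and 87.3% for Tie1, and 61.9% and 85.5% for Ptprb, at median depths of 7292 UMIs in the knockout and 6289 in WT. Keratin positive cells, which should lack Tie1, held a Tie1 UMI in 0.187% of knockout and 0.265% of WT cells at medians of 16429 and 16062 UMIs. Red cell RNA summed to 3.78 CPM in knockout and 584 CPM in WT endothelial cells. Within WT subtypes it was at 2272 CPM in venous cells and at 5.87 CPM or less in tip and capillary cells. The part of red cell RNA in the endothelial ratios was not tested.

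**Figure D3:**
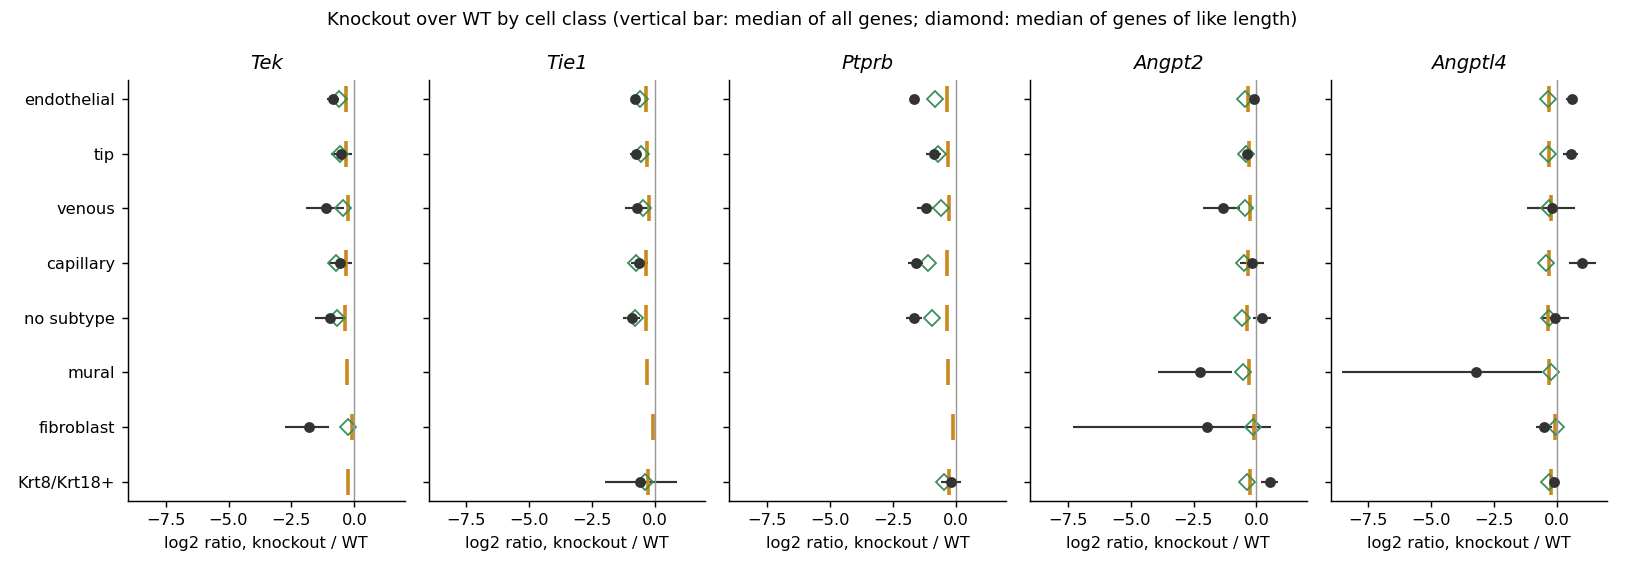
Log2 ratio of knockout over WT for 5 genes by cell class, with 95% counting intervals, for genes with at least 20 UMIs over both libraries. The vertical bar is the median of all genes of the class and the diamond the median of genes of like transcript length. Ptprb lies left of both in each endothelial class, while Angptl4 lies right of 0 in tip and capillary cells.

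Tek was also present in fibroblasts, where Tie1 and Ptprb were nearly absent. Knockout fibroblasts held 12 Tek UMIs (11.9 CPM, 6.15 to 20.8) and WT fibroblasts 1064 (41.7 CPM, 39.2 to 44.3). A Tek UMI was found in 6.56% of knockout and 28.7% of WT fibroblasts, but in 0.0510% and 0.206% of the deeper keratin positive cells. Tek in fibroblasts was 303-fold its keratin positive level in the knockout and 331-fold in WT. These folds rest on 4 knockout and 7 WT Tek UMIs in keratin positive cells. On the log2 scale their intervals were 6.52 to 10.3 in the knockout and 7.32 to 9.69 in WT. Tie1 had 0 and 8 UMIs in the same fibroblasts and Ptprb 0 and 15, knockout before WT.

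WT fibroblasts held 133 Tek UMIs per Tie1 UMI, while WT endothelial cells held 0.392 and WT keratin positive cells 0.778. In the knockout, 12 Tek and 0 Tie1 UMIs in fibroblasts stood beside 0.378 Tek per Tie1 UMI in endothelial cells. Summed endothelial markers were 136 CPM in knockout and 99.3 CPM in WT fibroblasts. The part of RNA from endothelial cells in the fibroblast values of Tek was not tested.

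**Figure D4:**
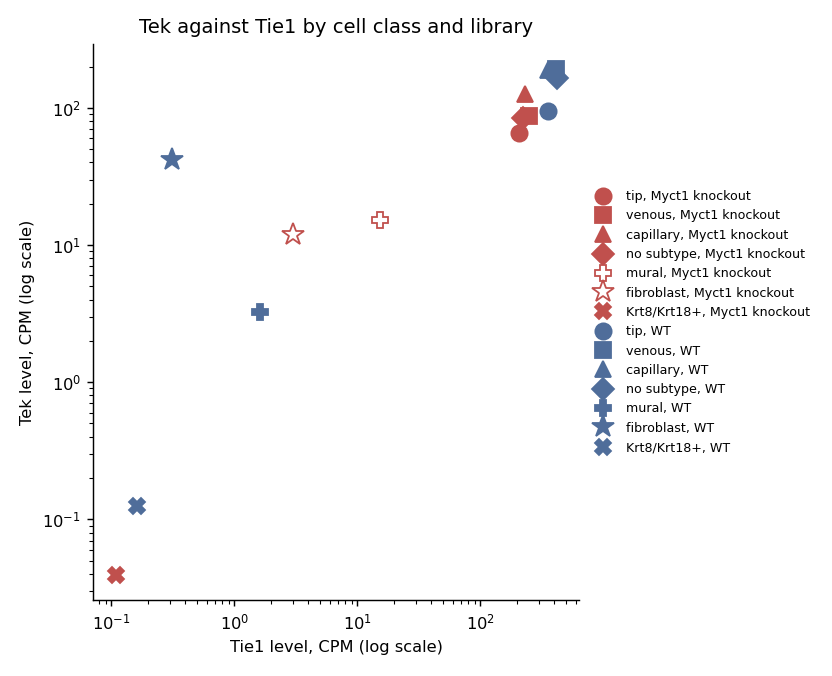
Tek against Tie1 in CPM (log axes), 1 point per cell class and library, with open symbols where 1 or both genes had 0 UMIs and were drawn at the level of 3 counts. Endothelial classes lie together at the upper right, and WT fibroblasts stand off with 41.7 CPM of Tek and 0.313 CPM of Tie1.

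The fibroblast log2 ratio of Tek was -1.81 (-2.76 to -0.997), and lay between -1.90 and -1.54 over the alternatives tried. Angpt1, Angpt2 and Tek reached 20 UMIs in fibroblasts through WT alone, so that their being at least 1.5-fold lower is in part set by that filter and is not read against the 22.9% of 8705 genes lower and 16.8% higher. The Angpt2 ratio rests on 1 knockout UMI, and its interval (-7.27 to 0.56) includes 0. Only 66.4% of knockout fibroblasts, against 96.0% in WT, fell in clusters named fibroblast, and 43 knockout and 204 WT fibroblasts had under 3000 UMIs. Summed mural markers were 813 CPM in knockout and 472 CPM in WT fibroblasts, and their part in these ratios was not tested.

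The makeup of the fibroblasts differed between the libraries, and a split chosen after these values were seen followed it. Cells with at least 3 UMIs of Pi16, a marker of adventitial fibroblasts, were 31 of 122 in the knockout and 2036 of 2731 in WT. They held 8 of 12 Tek UMIs in the knockout (37.4 CPM, 16.2 to 73.8) and 992 of 1064 in WT (54.3 CPM, 50.9 to 57.7), a log2 ratio of -0.54 (-1.75 to 0.45). Cells with fewer Pi16 UMIs and at least 3 of Acta2, the smooth muscle actin of contractile fibroblasts, held 0 Tek UMIs in 26 knockout cells and 2 in 233 WT cells (0.595 CPM). The remaining cells were at 10.0 CPM in the knockout and 18.0 CPM in WT. After thinning, a Tek UMI was found in 10.0% of 20 knockout and 15.4% of 1938 WT Pi16 positive cells.

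Angpt1 had another order in WT, at 13.2 CPM in Pi16 positive, 31.8 CPM in Acta2 positive and 23.5 CPM in the remaining fibroblasts, with 2, 1 and 1 UMIs in the same sets of the knockout. Angpt2 in WT was at 0.821, 13.4 and 9.80 CPM in the same order. Tek was thus highest where Angpt1 and Angpt2 were lowest among WT fibroblasts.

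**Figure D5:**
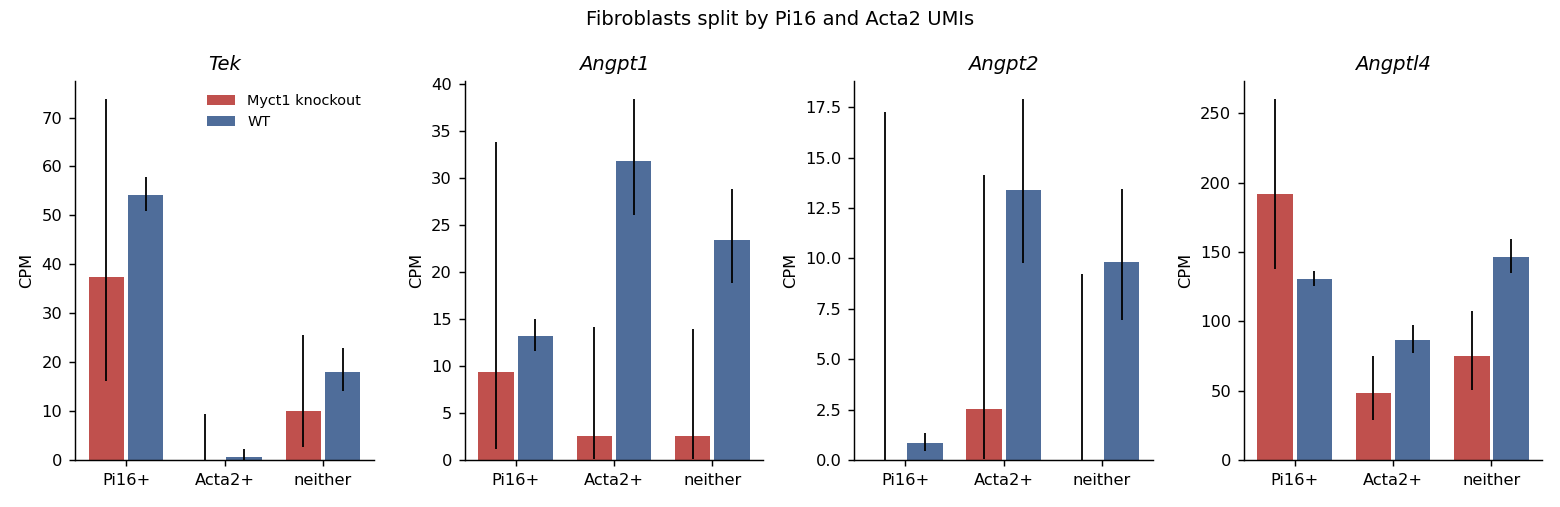
Levels in CPM of Tek, Angpt1, Angpt2 and Angptl4 in fibroblasts with at least 3 Pi16 UMIs, with fewer Pi16 and at least 3 Acta2 UMIs, and with under 3 of each, knockout left of WT. Bars are sums over cells with exact Poisson 95% intervals. Tek reaches 54.3 CPM in WT Pi16 positive cells and 0.595 CPM in WT Acta2 positive cells.

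Angptl4 (ENSMUSG00000002289.16, chr17:33773750-33781830, minus strand, 7 exons) was the member found at 20 CPM or more in the widest set of classes, and the one that was higher in knockout endothelium. Endothelial cells held 339 UMIs in the knockout (142 CPM, 127 to 158) and 349 in WT (94.98 CPM, 85.3 to 105), a log2 ratio of 0.58 (0.36 to 0.80) at percentile 88.1 of all genes. This was 1.497-fold, just under the 1.5-fold limit, and 0.91 with TMM scaling or 0.93 relative to genes of like length. Capillary cells were at 162 CPM in the knockout and 80.7 CPM in WT, a log2 ratio of 1.01 (0.48 to 1.54). Tip cells were at 159 and 110 CPM, a ratio of 0.53 (0.22 to 0.85).

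Venous cells were at 62.0 CPM in the knockout and 70.4 CPM in WT and cells of no subtype at 108 and 114 CPM, with intervals of the ratio that include 0 in both. The capillary values lean on few cells, as 5 of 55 knockout cells held 40 of 72 UMIs and 5 of 104 WT cells held 24 of 55. With knockout subtypes weighted as in WT the ratio over endothelial cells was 0.40.

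Over whole classes outside the endothelium the level of Angptl4 was lower in the knockout than in WT, but in keratin positive cells TMM scaling and the reference of genes of like length turned the sign. Fibroblasts were at 89.3 CPM in the knockout (71.8 to 110) and 127 CPM in WT (123 to 132), a log2 ratio of -0.51 (-0.83 to -0.21). In Pi16 positive fibroblasts alone it was at 192 CPM in the knockout and 131 CPM in WT (0.55, 0.07 to 0.998), with 41 knockout UMIs of which 32 lay in 5 cells, and in Acta2 positive cells at 48.2 and 86.8 CPM (-0.85, -1.60 to -0.18). Mural cells held 1 UMI in the knockout and 29 in WT (46.8 CPM), and keratin positive cells were at 20.7 and 22.4 CPM (-0.11, -0.21 to -0.01). In mural cells Angpt2 and Angptl4 reached the 20 UMIs through WT alone, so that their being lower is in part set by that filter and is not read against the 37.5% of 5577 genes lower and 12.9% higher. Among keratin positive cells 0 of 5 members passed 1.5-fold, beside 19.9% of genes lower and 5.26% higher, and Angptl4 there was at 0.14 with TMM scaling and 0.19 relative to genes of like length.

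Genes around the axis were read in endothelial cells from 5 lists, as counts past 1.5-fold and medians beside the all-gene values of 37.2% lower, 11.7% higher and a median of -0.34. Of the 21 genes of the relay under Tie2, 15 had at least 20 UMIs. Their median was -0.70, and 9 of them were lower and 0 higher. Among them were Pik3r1, the regulatory subunit of PI3-kinase, at -1.07, the Ras GTPase activator Rasa1 at -1.04 and the endothelial nitric oxide synthase gene Nos3 at -0.89. Relative to genes of like length these 3 were at -0.31, -0.42 and -0.34. Also among the 9 were Akt2 (17 knockout and 46 WT UMIs) and Foxo3 (17 and 44). Akt2 and Foxo3 reached 20 UMIs through WT alone, so that their being lower is in part set by that filter. Foxo1, the transcription factor that AKT keeps out of the nucleus and that drives Angpt2, was at 69.6 CPM in the knockout and 113 CPM in WT (-0.70, and 0.10 relative to genes of like length). Akt1 was at 139 and 148 CPM (-0.09).

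Of the 10 genes listed around VE-PTP and endothelial junctions, 9 had at least 20 UMIs. The median was -0.60, and 5 were lower and 0 higher. Rasip1, an effector of Rap1 in vessel lumen formation, was at 203 CPM in the knockout and 430 CPM in WT (-1.09, and -0.73 relative to genes of like length). The catenin genes Ctnnd1 and Jup were at -0.97 and -0.77 and the exchange factor gene Fgd5 at -0.62, or -0.23, -0.41 and 0.06 relative to genes of like length. Among the 7 measured of 10 integrin and matrix genes, the median was -0.43, and 3 were lower and 0 higher: Itgb3, the beta subunit of the vitronectin receptor, at -0.98, the sheddase gene Adam17 at -0.85 and the fibronectin receptor gene Itga5 at -0.75. Relative to genes of like length these were at -0.34, -0.23 and -0.16. Fn1, fibronectin, was at 542 CPM in the knockout and 362 CPM in WT (0.58, and 1.38 relative to genes of like length), and WT fibroblasts held 7966 CPM. Summed fibroblast markers in endothelial cells were 13.8 CPM in the knockout and 131 CPM in WT. The part of RNA from fibroblasts in the Fn1 values was not tested.

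The 5 measured of 11 angiopoietin-like and lipase genes had a median of -0.03, 1 of them being lower and 0 higher. Gpihbp1, which anchors lipoprotein lipase on capillaries and was among the capillary gate markers, was at 2008 CPM in the knockout and 1673 CPM in WT (0.26), Lmf2 at -0.52 and Lmf1 at -0.03. Lpl, the lipase that ANGPTL4 inhibits, had 7 and 27 UMIs in endothelial cells (-1.32) and 713 CPM in WT fibroblasts. As the 1 lower gene of this list, Lpl reached 20 UMIs through WT alone, so that its being lower is in part set by that filter. Of the 10 measured among 13 regulators and fellow targets of Angptl4, 2 were higher and 6 lower, and the median was -0.68. Both higher genes are known to be induced by hypoxia: Hilpda, a lipid droplet protein gene, at 185 CPM in the knockout and 80.0 CPM in WT (1.21, 0.996 to 1.43), and Adm, adrenomedullin, at 267 and 138 CPM (0.95, 0.78 to 1.13), Adm being a tip gate marker. Epas1, the hypoxia-inducible factor of endothelium, was at 248 CPM in the knockout and 645 CPM in WT (-1.38, -1.51 to -1.25), and the fatty acid receptor gene Ppard was at -0.94. Relative to genes of like length Hilpda was at 0.73, Adm at 0.63, Epas1 at -0.67 and Ppard at -0.46. In all, 2 list genes were higher and 24 lower, and TMM scaling gave 5 and 9, genes of like length 5 and 4. The 24 include Akt2, Foxo3 and Lpl.

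The genes with the pattern most like each member were found over 14 sums, those of 7 cell classes in 2 libraries, by Pearson correlation of log2(CPM + 1) among 8902 genes that were not gate markers. The sums share library, depth and free RNA, and the values are a description. Nearest to Tie1 were Eltd1 (0.999), She (0.998) and Rasip1 (0.998), and nearest to Ptprb were Gpr56 (0.994), Ehd4 (0.993) and Aplnr (0.991). For Tek they were Entpd1 (0.979), Abca1 (0.978) and Peg3 (0.977), and for Angpt2 Gpr4 (0.981), Grap (0.980) and Pcdh12 (0.979). Shox2 (0.987), Irs1 and Errfi1 (both 0.968) were nearest to Angpt1. Angptl4 had lower values, with Grk5 at 0.923, Sertad3 at 0.914 and Procr at 0.910. Spearman correlation kept 1 of the 3 genes for each member but Tie1, for which it kept 0.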

How the data were processed

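The authors deposited 1 table of whole UMI counts per library with no normalization, made with Cell Ranger 2.1.1 on mm10 per the submitters' processing notes; its annotation release is not stated there. Barcodes with under 200 genes or over 10% mitochondrial UMIs were left out, as were 539 knockout and 277 WT cells with a doublet score above 0.3. A cell joined a class with at least 6 of 10 markers of it, or for keratins at least 3 UMIs and 400 CPM of Krt8 and Krt18. A cell passing more than 1 gate joined none. Endothelial subtypes needed a lead of 0.3 in mean marker z-score. Counts were summed per class and library and given as CPM of listed genes, with exact Poisson, Clopper-Pearson and conditional binomial intervals. Genes under 20 UMIs over both libraries were not compared. All 6 members were named, with up to 4 genes of each list by size of ratio and 3 like genes for each member. Foxo1, Akt1, Akt2 and Foxo3 were added after their values were seen. The members, lists and gates were chosen with earlier results of these data known. Alternatives were other gates, Leiden clusters, doublets kept, 20% mitochondrial UMIs, TMM scaling, length, keratin positive cells as reference and equal subtype weights. The ratio script was tested on simulated counts. Software was scipy 1.17.1, numpy 2.4.6, leidenalg 0.10.2 and scikit-learn 1.9.0 under Python 3.11.15, with matplotlib 3.10.9 for plots. A result for 1 listed gene is not reported here.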

Additional observations from a re-analysis of the deposited data

Results flagged for a closer look

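Genotype differences that ran in opposite directions in different cell classes were marked where both counting intervals excluded 0. None of these differences between classes was tested, since each class had 1 sum per library. Angpt2 was higher in knockout keratin positive cells and lower in knockout mural cells, the log2 ratios differing by 2.76, with 5 Angpt2 UMIs in the 23 knockout mural cells. Angptl4 was higher in knockout endothelial cells and lower in mural cells (difference 3.79, from 1 knockout mural UMI), fibroblasts (1.09) and keratin positive cells (0.692). In mural cells Angpt2 and Angptl4 reached 20 UMIs through WT alone. Their being lower there is in part set by that filter, and so are the 2 flags that rest on mural cells. The keratin positive ratio of Angptl4 turned positive with TMM scaling (0.143) and relative to genes of like length (0.195).

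Signal was also found in cells outside the compared classes. Angpt2 was at 1377 CPM in 7 knockout lymphatic endothelial cells and 178 CPM in 14 WT ones, with 72 and 18 UMIs, of which 1 knockout cell held 27. Cells that passed more than 1 gate held 61.5 CPM of Angpt2 in the knockout (24 cells) and 24.5 CPM in WT (67 cells). Lymphatic cells had under 20 cells in each library and were not compared.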

How the results depend on the processing

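Of 330 alternative values of the members' log2 ratios, 286 stayed within the counting interval of the main value. Of the others, 43 moved out of it without a called turn (37 by scaling, length or the keratin reference, 6 by which cells were used). The 1 called turn was Tie1 in capillary cells, at 0.130 relative to genes of like length. A change of sign alone was not called a turn, and other values changed sign. Relative to genes of like length, Tek went from -0.514 to 0.0508 in tip and from -0.574 to 0.170 in capillary cells. Angpt2 in tip cells went from -0.381 to 0.0391. In endothelial cells, TMM scaling gave 0.220 for Angpt2, -0.530 for Tek, -0.479 for Tie1, -1.34 for Ptprb and 0.914 for Angptl4. Genes of like length as reference gave 0.361, -0.240, -0.219, -0.857 and 0.926 in the same order. Relative to keratin positive cells Angpt2 was at -0.635, Tie1 at -0.230 and Ptprb at -1.46. Equal weights of the subtypes gave -0.345 for Angpt2 and -1.39 for Ptprb, and knockout subtypes weighted as in WT, added after seeing the data, -0.393 and -1.33. Pathway list genes counted 1 higher and 6 lower at a 2-fold limit, 5 and 9 with TMM scaling and 5 and 4 relative to genes of like length, against 2 and 24. Levels moved in 8 of 192 values and shares of cells with a UMI, which depend on depth, in 35 of 48 after thinning. Venous ratios with doublets kept were -1.26 for Tie1 and -1.68 for Ptprb. The causes of these moves were not tested. Depth limits knockout venous and mural cells, with 30 and 23 cells and sums of 193681 and 197856 UMIs. Other splits added after seeing the data were those without cycling cells and with cells of 3000 or more UMIs. No paired analysis was possible because each genotype had 1 library.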

Other observations

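Among the keratin positive cells, which carried most knockout UMIs of Angpt1, the members were uneven. Cells were ranked by a score of hypoxia and glycolysis genes such as Pgk1, Ldha and Bnip3 and cut into 3 ranges of the score, not types, after the values above had been seen. Angptl4 was at 16.6, 19.9 and 25.6 CPM from the lowest to the highest range in the knockout, and at 17.9, 21.7 and 26.0 CPM in WT. Angpt1 ran the other way, at 3.77, 1.96 and 1.58 CPM in the knockout and 6.78, 1.84 and 0.771 CPM in WT. The lowest range was shallower than the highest, with medians of 14524 and 17156 UMIs in the knockout and 13767 and 17892 in WT. The log2 ratio of knockout over WT for Angpt1 was -0.85 (-1.23 to -0.46) in the lowest range and 1.04 (0.24 to 1.90) in the highest, with 52 and 18 UMIs behind the second. The part of depth in these values was not tested.

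By cluster, Angpt1 was highest in keratin positive cluster 5, at 8.86 CPM in 1051 knockout cells and 28.1 CPM in 111 WT cells. This cluster held 130 knockout and 50 WT Angpt1 UMIs. Clusters include cells outside the keratin gate, so these are not shares of the 241 and 161 UMIs of gated keratin positive cells. Angptl4 was highest in cluster 1, at 41.5 CPM in 587 knockout cells and 38.5 CPM in 1068 WT cells. The clusters hold unlike shares of the libraries, so a cluster may stand for a library as well as for a state.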
